A study of Mus musculus with 18 samples.

Results

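The interferon response genes are a list of 49 mouse genes known to be induced by type I or type II interferons. Their transcripts were followed on 18 Affymetrix mouse genome arrays in CD8+ cells of OT-I mice, whose T cells recognise an ovalbumin peptide through a receptor encoded by a transgene. The members are listed by symbol. For each, 1 probe set was taken, annotated to that symbol alone and with the highest mean over the 18 arrays. Of the 49, 45 had such a probe set, among 18194 genes in all. Isg15, Ly6a, Ly6c1 and Ifi44 had none and were not analysed here. The cells came from male OT-I TCR transgenic mice. Naive CD8+ cells were purified from spleen by negative selection, primed for 48 hours with peptide-pulsed, irradiated splenocytes of wild-type C57BL/6 mice, passed over a density gradient and cultured for another 24 hours. The groups were IL-21, IL-15, IL-7, IL-4 and IL-2, each at 100 ng/ml, and a media control without cytokine, with 3 biological replicates each. All 6 groups shared the transgenic receptor and the priming, and the study's text has the T cells purified again after the priming, with the gradient as the step it names.

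Type I interferons bind the receptor chains IFNAR1 and IFNAR2, whose kinases JAK1 and TYK2 activate STAT factors. With IRF9 these form the complex ISGF3, which binds the interferon-stimulated response element (ISRE). Interferon-γ, made by activated CD8+ T cells themselves, signals through IFNGR1 and IFNGR2, JAK1 and JAK2 to STAT dimers that bind the gamma-activated site (GAS). The cytokines tested here signal through the common γ chain, also by way of JAK kinases and STAT factors. The genes induced by interferons encode enzymes, sensors and membrane proteins that limit viruses and intracellular pathogens.

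Promoter sequences were looked at first, because both elements have short cores that can be read in the window from 250 bases before to 50 bases after the start site. Of the 49 members, 36 were matched by symbol in the RefSeq promoter table (build GRCm38.p6). Dhx58, Ifi204, Ifi27l2a, Iigp1, Ly6a, Ly6e, Mx1, Oas2, Parp14, Parp9, Rtp4, Usp18 and Zbp1 were not. An ISRE core, GAAA and GAAA with 2 bases of any kind between them (TTTC and TTTC on the other strand), stood in the windows of 18 of the 36 genes (50%), against 1079 of all 27025 genes in the table (3.99%). A GAS core, TTCNNNGAA, which reads the same on both strands, stood in 9 of the 36 (25%), against 2582 of all genes (9.55%). Both were present in 4 members. Where a gene had more than 1 window, as for 8 members, it was counted once if any window held the core.

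The 7 windows that follow belong to members whose levels separated the groups, with ISRE and GAS cores in capitals. Positions are counted from the start site, with no base 0. Ifitm1, Ifitm2 and Ifitm3, all on chromosome 7, were the members that rose with IL-21, and Igtp fell with it. Gbp2, Irf1 and Ifi209 fell with IL-2. The windows are chr7:140967826-140968125 on the + strand (Ifitm1), chr7:140955912-140956211 on the - strand (Ifitm2), chr7:141010695-141010994 on the - strand (Ifitm3), chr11:58199306-58199605 on the + strand (Igtp), chr3:142620413-142620712 on the + strand (Gbp2), chr11:53769764-53770063 on the + strand (Irf1, 1 of 2 windows) and chr1:173630609-173630908 on the + strand (Ifi209).
Ifitm1: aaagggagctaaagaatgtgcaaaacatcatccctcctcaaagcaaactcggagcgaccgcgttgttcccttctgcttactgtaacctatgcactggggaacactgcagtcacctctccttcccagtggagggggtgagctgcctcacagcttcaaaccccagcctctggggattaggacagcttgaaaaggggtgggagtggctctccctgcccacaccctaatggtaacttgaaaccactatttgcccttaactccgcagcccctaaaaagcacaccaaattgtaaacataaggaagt
Ifitm2: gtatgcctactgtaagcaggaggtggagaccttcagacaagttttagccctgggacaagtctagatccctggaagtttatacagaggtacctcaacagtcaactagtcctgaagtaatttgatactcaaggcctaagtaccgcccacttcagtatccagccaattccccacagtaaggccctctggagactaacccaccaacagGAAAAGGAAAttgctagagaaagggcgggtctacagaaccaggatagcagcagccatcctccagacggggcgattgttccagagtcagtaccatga
Ifitm3: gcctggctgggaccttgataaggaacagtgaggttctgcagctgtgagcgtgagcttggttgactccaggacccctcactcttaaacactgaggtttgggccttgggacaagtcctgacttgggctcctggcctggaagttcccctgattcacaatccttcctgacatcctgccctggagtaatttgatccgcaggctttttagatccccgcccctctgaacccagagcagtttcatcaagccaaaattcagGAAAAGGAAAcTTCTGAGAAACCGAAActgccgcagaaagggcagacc
Igtp: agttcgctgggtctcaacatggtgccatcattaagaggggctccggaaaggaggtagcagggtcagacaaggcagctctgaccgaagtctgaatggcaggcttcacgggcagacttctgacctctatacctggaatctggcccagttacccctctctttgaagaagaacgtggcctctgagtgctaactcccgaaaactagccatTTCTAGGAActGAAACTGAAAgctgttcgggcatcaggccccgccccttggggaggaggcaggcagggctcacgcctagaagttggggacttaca
Gbp2: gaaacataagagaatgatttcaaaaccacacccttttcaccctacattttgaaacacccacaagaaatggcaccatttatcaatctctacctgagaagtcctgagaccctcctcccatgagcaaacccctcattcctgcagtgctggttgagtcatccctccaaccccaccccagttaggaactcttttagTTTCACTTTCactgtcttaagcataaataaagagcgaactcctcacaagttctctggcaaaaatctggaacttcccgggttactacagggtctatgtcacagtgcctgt
Irf1: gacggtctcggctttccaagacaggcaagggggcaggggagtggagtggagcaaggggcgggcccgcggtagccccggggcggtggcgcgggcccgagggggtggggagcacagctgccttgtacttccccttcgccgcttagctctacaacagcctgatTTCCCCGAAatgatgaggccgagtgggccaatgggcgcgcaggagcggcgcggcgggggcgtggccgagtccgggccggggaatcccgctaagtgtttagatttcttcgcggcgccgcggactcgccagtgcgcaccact
Ifi209: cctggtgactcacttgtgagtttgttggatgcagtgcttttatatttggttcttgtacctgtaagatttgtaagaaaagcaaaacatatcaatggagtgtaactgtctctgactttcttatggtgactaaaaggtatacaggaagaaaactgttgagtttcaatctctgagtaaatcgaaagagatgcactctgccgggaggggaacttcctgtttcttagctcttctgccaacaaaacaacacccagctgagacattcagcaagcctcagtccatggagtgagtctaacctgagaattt
The Ifitm2 window held 1 ISRE core at bases -46 to -37. The Ifitm3 window held ISRE cores at bases 3 to 12 and 20 to 29, the second of which overlapped a GAS core at bases 14 to 22. Igtp had a GAS core at -45 to -37 and an ISRE core at -34 to -25, Gbp2 an ISRE core at -59 to -50, and Irf1 a GAS core at -90 to -82. Neither core stood in the windows shown for Ifitm1 and Ifi209. Of the 14 members with a window that were called lower with IL-2, 6 held an ISRE core and 2 a GAS core. Of the 19 measured members not called lower, 11 and 7 did. These matches are a description of the letters in the windows, and a link to the changes was not tested.

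The values are log2 levels after quantile normalization, so that a difference of 1 is a doubling. A fold change was called where limma gave an adjusted p (Benjamini-Hochberg over all 18194 genes of the comparison) under 0.05, and SE is its standard error. As deposited, 3 arrays (replicate 3 of IL-2, IL-15 and media control) lay lower over the whole array, with medians of 4.47 to 4.52 against 5.76 to 5.84 in the other 15. These 3 arrays also held fewer distinct values, 15283 to 19897 against 40553 to 41277 in the others. After normalization the medians were 5.58 to 5.59, but single genes could still differ. Parp12 was at 5.05, 5.03 and 4.97 in the 3 arrays, against 6.13, 5.88 and 5.81 in replicate 3 of IL-4, IL-7 and IL-21. Ifna2 went the other way, at 6.23, 6.20 and 6.26, against 5.14, 5.37 and 5.29. The part of this in the results was not tested. RNA of replicates 1 and 2 was prepared with RNeasy columns, and TRIzol with Direct-zol columns served for replicate 3. The arrays had no detection calls, and a level of 8.32, the 95th percentile over 33 genes picked as specific to other tissues, was taken as background. Of these 33 genes, 2 were called lower with IL-2, 2 lower with IL-21, and 1 higher and 1 lower with IL-4. Some may thus be expressed here, and the level, set by the highest of them, may be too high. Their median was 5.14. All 8 CD8 T cell markers lay above it, while 0 of 4 CD4 T cell, 1 of 9 B cell (Ighm), 1 of 10 myeloid (Lyz2), 1 of 7 dendritic cell (Irf8), 1 of 4 NK cell (Eomes) and 0 of 3 red cell markers did. In bulk RNA, fewer cells of a type and less RNA per cell cannot be told apart.

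Of the 45 measured members, 29 had a group mean above background and 16 had none. Among those 16 were Ifit1 and Ifit3, which bind viral RNA, the 2'-5' oligoadenylate synthetase family members Oas2, Oas3, Oasl1 and Oasl2, the RNA-activated kinase Eif2ak2, viperin (Rsad2), the ISG15 protease Usp18, the HIN-200 family genes Ifi203 and Ifi204, and the sensor Dhx58. These 12 genes ranged from 2.20 to 8.40 over all arrays and none passed a test for any difference among the 6 groups. The other 4 genes with no group mean above background were Mx1, Irf7, Rtp4 and Parp12. Where a level lies under background, the size of its change is not exact.

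A test for any difference among the 6 groups was passed by 28 of the 45 members, against 13.9% of all genes. Of these 28, 25 were among the 29 above background, where Ddx58, Dtx3l, Bst2 and Ifi35 did not pass. The mean was lowest with IL-2 for 28 of the 45 members and highest in the media control for 19, and IL-21 gave the highest mean for 10. These counts include members below background, and the same counts over all genes were not taken. IL-2 against media control had the most genes called of any pair (15.8%), so extreme means in these 2 groups may be common. Some members varied with the replicate. Replicate 3 lay under both other replicates in 6 of 6 groups for Oas3, Ddx58, Parp12, Dtx3l, Bst2 and Ifi35, and over both in 6 of 6 groups for Eif2ak2. The difference of replicate 3 from the mean of the other two averaged -1.31 for Bst2, -1.22 for Parp12 and -1.08 for Dtx3l, and was 0.90 for Eif2ak2. Within the media control, replicate 2 held the highest level for 35 of the 45 members.

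**Figure D1:**
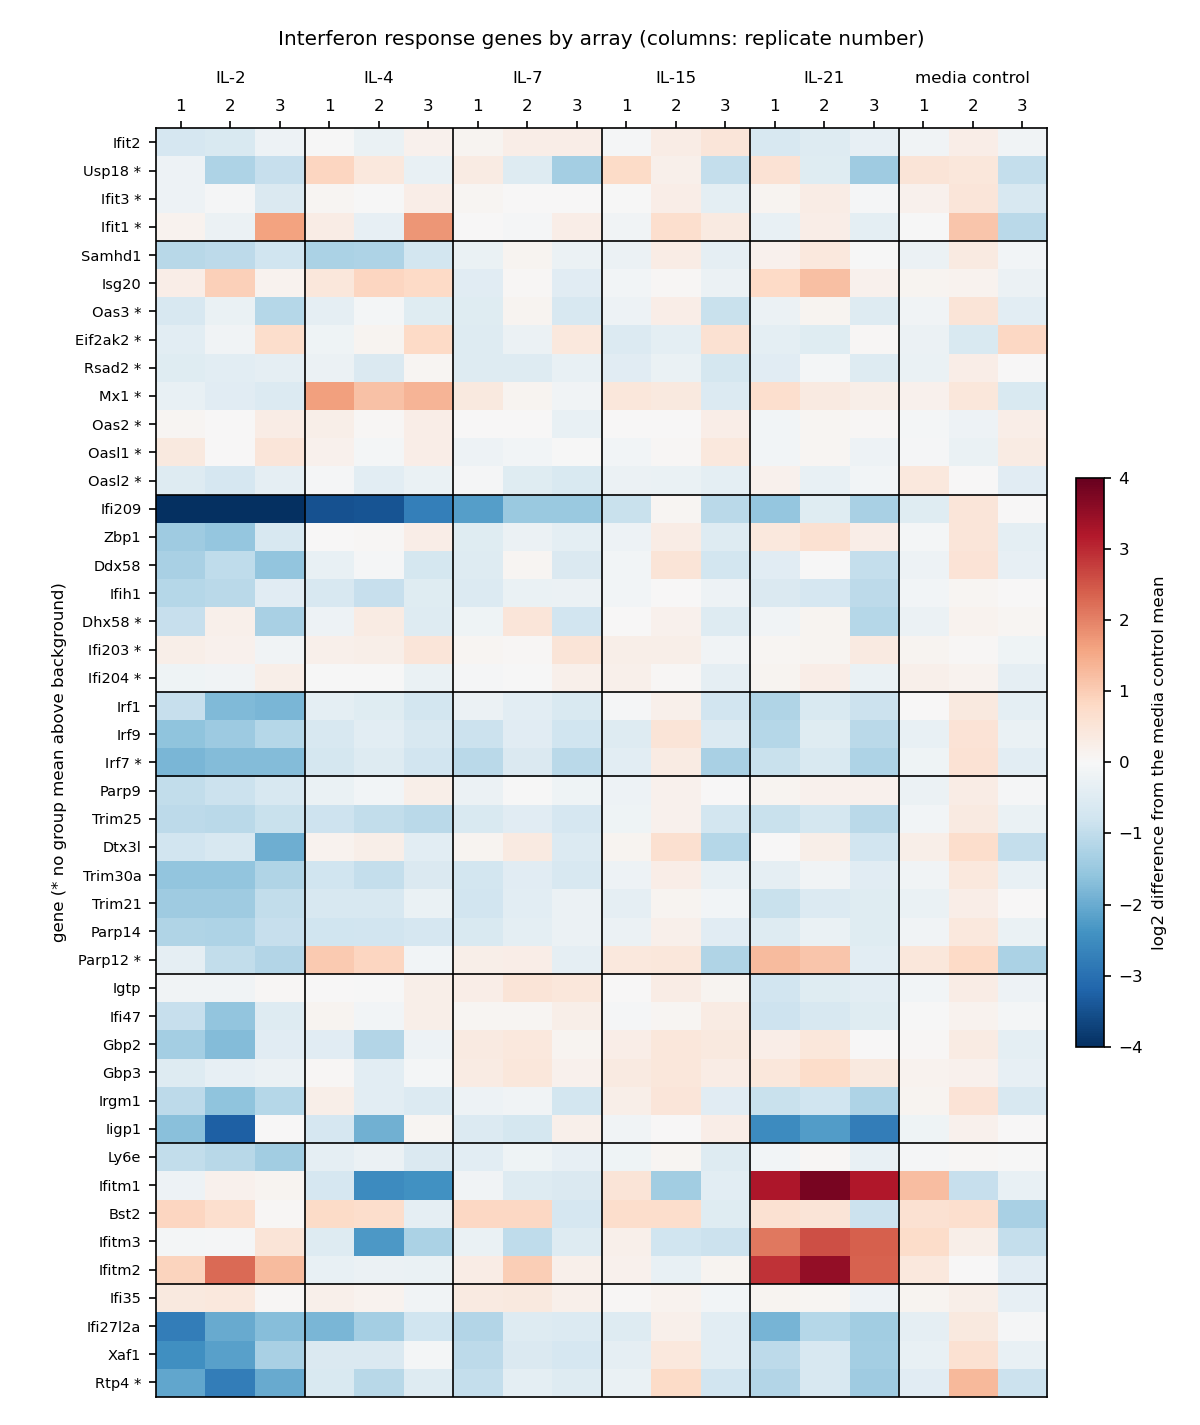
Each row is 1 of the 45 measured genes, grouped by role, and each column 1 of the 18 arrays. Colour gives the log2 difference from the media control mean, and the scale ends at 4 on both sides, which the IL-2 arrays of Ifi209 pass. Blue predominates in the IL-2 columns, and the IFITM rows are red in the IL-21 columns.

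With IL-2, 20 of the 45 members fell and 1 rose, against 15.8% of all genes called in either direction (7.83% higher and 8.0% lower). Of the 29 members above background, 18 fell and 1 rose. In a separate fit of the 6672 genes above background, which adjusts over fewer genes, 40.5% of genes were called. The median change of the members was -0.82, while that of all genes was 0.01. The 3 transcription factors, 4 of 7 sensors and HIN-200 genes, 5 of 7 PARP and TRIM genes, 3 of 6 GTPases and 3 of 4 other induced genes fell. Of the 9 antiviral enzymes and nucleases only Samhd1 fell, and of the 4 measured genes of the IFIT and ISG15 group none passed. All 3 IL-2 arrays lay below all 3 media control arrays for 22 of the 45 members, and above them for 1. Among all 18194 genes they lay below for 2249 and above for 2349.

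The fall was largest for Ifi209, a member of the HIN-200 family of DNA-binding proteins. Its level was 6.81, 6.95 and 7.18 in the IL-2 arrays, against 11.25, 12.22 and 11.74 in the media control arrays. The groups did not overlap, and the IL-2 arrays lay under the background level. The change was -4.76 (SE 0.35, adjusted p = 1.06e-06), a 27.1-fold lower level, and Ifi209 was the 1 member that also passed on the values as deposited (-4.75, adjusted p = 0.000669), where 0.407% of all genes were called. Over the 6 groups its mean ordered them as IL-2 at 6.98 ± 0.19, IL-4 at 8.50 ± 0.42, IL-7 at 10.01 ± 0.42, IL-21 at 10.62 ± 0.55, IL-15 at 11.11 ± 0.63 and media control at 11.74 ± 0.48 (SD, n = 3). Within this order the arrays of IL-7 and IL-21, of IL-21 and IL-15, and of IL-15 and media control overlapped.

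The 3 interferon regulatory factors in the list fell together with IL-2. Irf7, which drives transcription of the type I interferon genes, was at 6.21, 6.29 and 6.30 with IL-2, against 7.86, 8.61 and 7.63 in the media control. Its change was -1.77 (SE 0.32, adjusted p = 0.00126), and both groups averaged below the background level. Irf1, a factor induced by interferon-γ, was at 10.80, 9.95 and 9.91 with IL-2, against 11.73, 12.12 and 11.33 in the media control (-1.51, SE 0.28, adjusted p = 0.00136). Irf9, the DNA-binding subunit of ISGF3, was at 7.75, 7.91 and 8.23 with IL-2, against 9.07, 9.91 and 9.10 in the media control (-1.40, SE 0.29, adjusted p = 0.00312). None of the 3 genes had overlapping groups.

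Among the other induced genes, 3 of 4 fell with IL-2. Rtp4, which restricts RNA viruses, was at 5.39, 4.70 and 5.45 with IL-2, against 7.0, 8.76 and 6.61 in the media control. The change was -2.28 (SE 0.47, adjusted p = 0.00316), with both groups averaging below background. Ifi27l2a, a small hydrophobic membrane protein, was at 9.32, 10.08 and 10.39 with IL-2, against 11.75, 12.50 and 12.06 in the media control (-2.17, SE 0.33, adjusted p = 0.000317). Xaf1, an antagonist of the apoptosis inhibitor XIAP, was at 6.96, 7.24 and 8.11 with IL-2, against 9.12, 10.02 and 9.11 in the media control (-1.98, SE 0.32, adjusted p = 0.000563). In each of these genes every IL-2 array lay under every media control array. Ifi35 had a change of 0.28 and did not pass.

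The RNA sensors RIG-I (Ddx58, -1.30) and MDA5 (Ifih1, -0.89) and the Z-form nucleic acid sensor Zbp1 (-1.20) fell with IL-2. So did the ubiquitin ligases Trim30a (-1.45), Trim21 (-1.28) and Trim25 (-1.0) and the ADP-ribosyltransferases Parp14 (-1.12) and Parp9 (-0.82). Dtx3l, the partner of Parp9 in a ubiquitin ligase complex, had a change of -1.12 with an SE of 0.49 and did not pass, although its differences within replicates 1, 2 and 3 were -1.01, -1.34 and -1.02 and it passed with the replicate block (adjusted p = 0.000129). Of the interferon-inducible GTPases, some of which attack the vacuoles of intracellular pathogens, Irgm1 (-1.27), Gbp2 (-1.18) and Ifi47 (-1.02) fell. Igtp (-0.08) and Gbp3 (-0.35) did not pass, and neither did Iigp1, whose IL-2 arrays spread over 8.53, 6.94 and 10.21, against 10.04, 10.39 and 10.21 in the media control. Samhd1, a nucleotide hydrolase that limits retroviruses, fell by 0.99, and Ly6e, a surface protein that limits virus entry, fell by 1.16.

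Ifitm2, of a family of membrane proteins that block virus entry, was the 1 member that rose with IL-2. It was at 8.60, 9.98 and 8.96 with IL-2, against 8.13, 7.72 and 7.25 in the media control. The groups did not overlap, and the change was 1.48 (SE 0.35, adjusted p = 0.00784). Its relatives Ifitm1 (0.02, SE 0.55) and Ifitm3 (0.14, SE 0.45) did not pass.

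With the replicate number as a block, 28 members fell and 4 rose with IL-2, against 30.6% of all genes. In the RNeasy arrays alone 29 fell and 1 rose, against 23.7% of all genes. Leaving out media control replicate 2 ended the calls of Ddx58 (adjusted p = 0.0751), Irgm1 (0.0628) and Gbp2 (0.0638), and the call of Gbp2 was also lost without IL-2 replicate 1 (0.0509) or 2 (0.0607). Markers of other cells moved with this comparison. The mean log2 level of the 10 myeloid markers ranged over 4.96 to 5.25 with IL-2, against 5.42 to 6.51 in the media control, and that of the 9 B cell markers over 5.68 to 6.13, against 6.23 to 6.39. Of these, 1 myeloid (Cd68) and 4 B cell markers were called lower, and all myeloid and B cell markers but Lyz2 and Ighm lay below background in every group mean. Of 7 dendritic cell markers 1 was called lower (Itgax, -1.42, below background in every group mean), and their median change was -0.01. Irf8, another of the 7, was higher in every IL-2 array without a call. It was at 11.07, 10.59 and 10.71 with IL-2, against 10.37, 9.91 and 9.18 in the media control. The CD8 T cell markers ranged over 11.59 to 11.92 with IL-2, against 12.32 to 12.62 in the media control, with 5 of 8 called lower. Lyz2, the lysozyme of myeloid cells, was at 6.30, 7.09 and 5.86 with IL-2, against 8.81, 11.54 and 7.67 in the media control, where replicate 2 was highest. The part of these markers in the result was not tested. Without media control replicate 2, 17 members still passed as lower and 1 as higher.

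**Figure D2:**
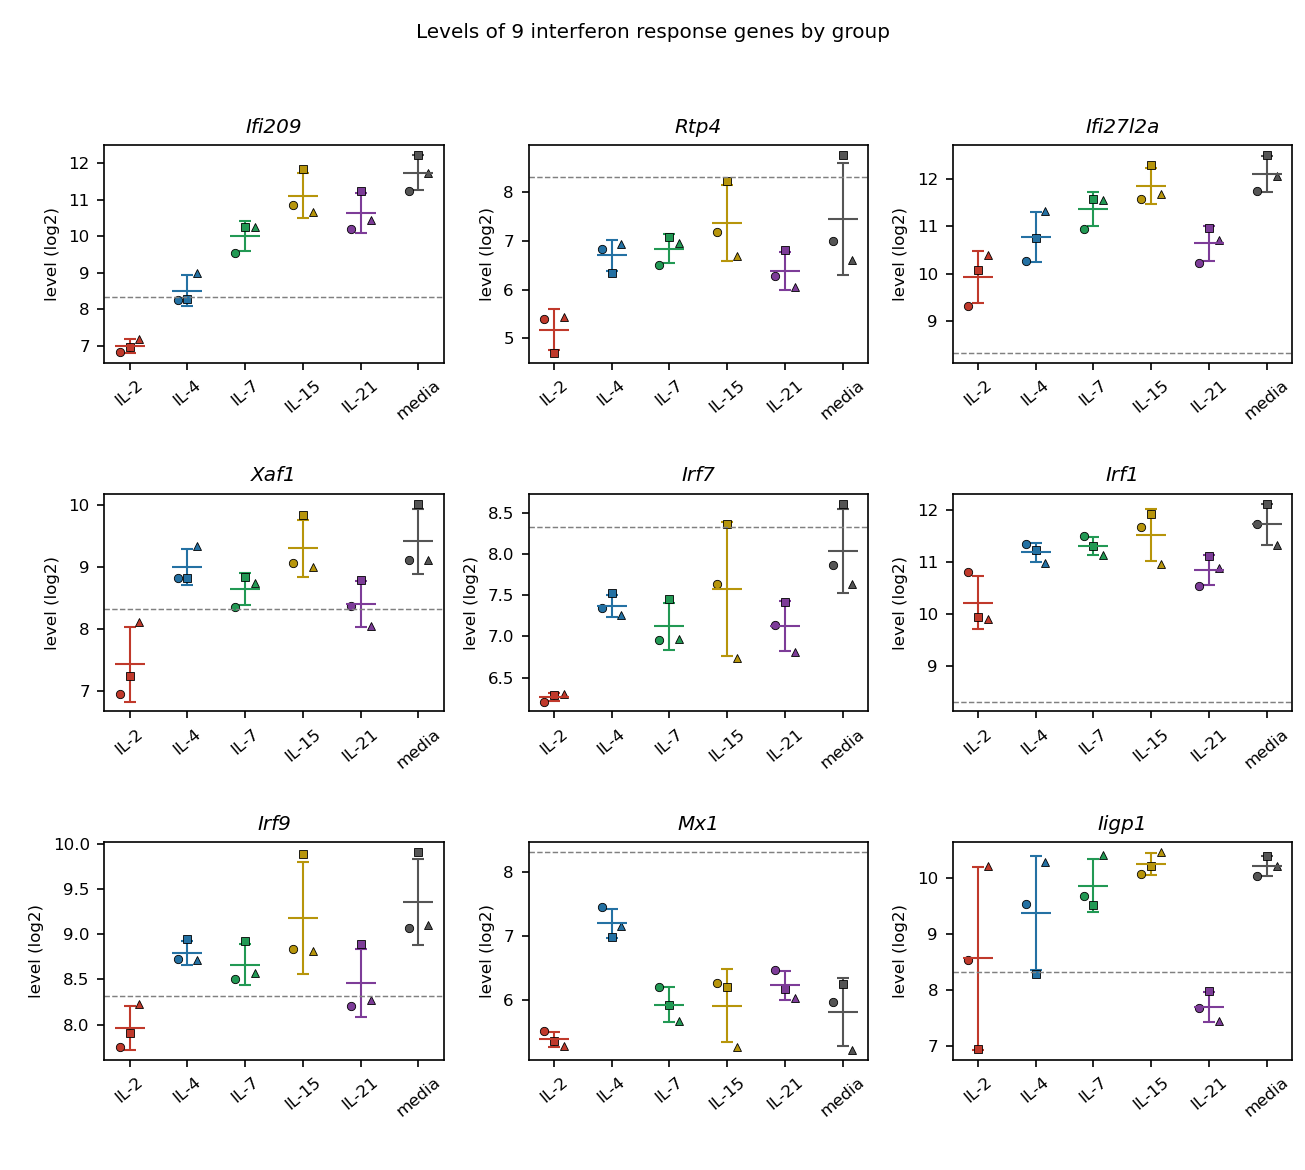
Log2 levels of 9 genes in the 6 groups. Replicate 1 is drawn as circles, replicate 2 as squares and replicate 3 as triangles. Horizontal bars are means with SD (n = 3), and the dashed line is the background level of 8.32. The IL-2 mean is the lowest in every panel but that of Iigp1, where the IL-21 mean is, and the IL-4 points of Mx1 lie above all others.

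With IL-21 the 3 IFITM genes rose and 5 other members fell, against 6.67% of all genes called in either direction (3.39% higher and 3.29% lower). The median change of the 45 members was -0.21 and that of all genes -0.01. Ifitm1 was at 12.33, 12.91 and 12.30 with IL-21, against 10.34, 8.17 and 8.80 in the media control. Ifitm2 was at 10.60, 11.23 and 10.05 with IL-21, against 8.13, 7.72 and 7.25, and Ifitm3 at 10.94, 11.41 and 11.23, against 9.55, 9.05 and 7.89. Every IL-21 array lay above every media control array in all 3 genes. The changes were 3.41 for Ifitm1 (SE 0.55, adjusted p = 0.00118), 2.93 for Ifitm2 (SE 0.35, adjusted p = 8.15e-05) and 2.36 for Ifitm3 (SE 0.45, adjusted p = 0.00366), or 10.6-fold, 7.62-fold and 5.15-fold. The media control arrays of Ifitm2 lay below background, so that its fold is not exact. In the RNeasy arrays alone Ifitm3 had an adjusted p of 0.0588. The other measured genes of that role, Bst2 (0.09) and Ly6e (-0.11), did not pass.

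**Figure D3:**
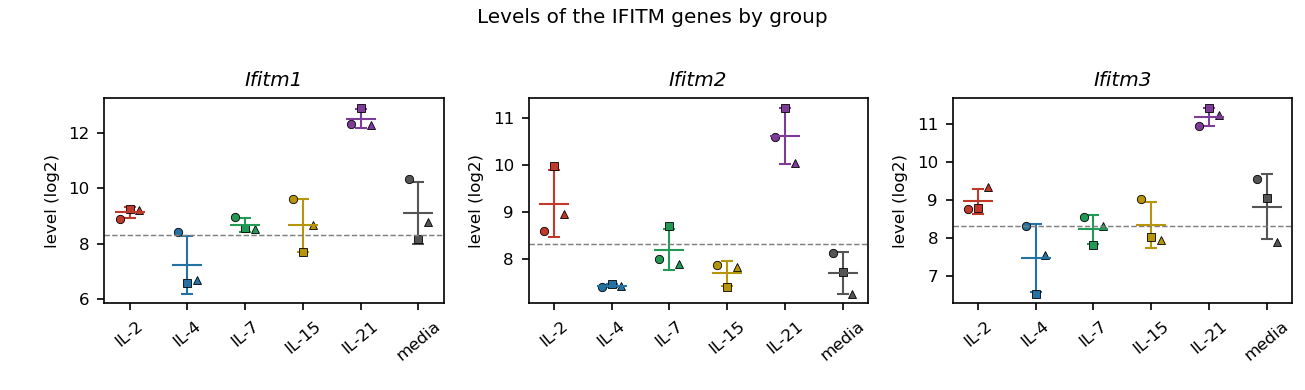
Log2 levels of Ifitm1, Ifitm2 and Ifitm3 in the 6 groups. Replicate 1 is drawn as circles, replicate 2 as squares and replicate 3 as triangles. Bars are means with SD (n = 3), and the dashed line is the background level of 8.32. The IL-21 points lie above those of every other group in all 3 panels, and the IL-4 mean is the lowest in each.

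The members that fell with IL-21 came from several roles. Iigp1, a GTPase of the IRG family, was at 7.68, 7.97 and 7.44 with IL-21, against 10.04, 10.39 and 10.21 in the media control. The groups were separated by more than 2 on the log2 scale, and the change was -2.52 (SE 0.60, adjusted p = 0.0175). Ifi27l2a was at 10.23, 10.97 and 10.71 with IL-21, against 11.75, 12.50 and 12.06 (-1.46, SE 0.33, adjusted p = 0.0112). Trim25, which ubiquitinates RIG-I, was at 10.32, 10.50 and 10.14 with IL-21, against 11.11, 11.56 and 10.95 (-0.89, SE 0.20, adjusted p = 0.0111). No array of these genes crossed into the other group. Ifih1 was at 7.95, 7.86 and 7.47 with IL-21, against 8.41, 8.61 and 8.55 (-0.76, SE 0.18, adjusted p = 0.0172). Igtp, another IRG GTPase, was at 12.07, 12.38 and 12.43, against 12.73, 13.16 and 12.65 (-0.55, SE 0.15, adjusted p = 0.0339). Both genes were lower in every IL-21 array.

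Irf1, Irf7 and Irf9 had changes of -0.88, -0.91 and -0.90 with IL-21 and did not pass (adjusted p = 0.073, 0.117 and 0.0775). All 3 were lower in each replicate number and passed with the replicate block (adjusted p = 0.0108, 0.00725 and 0.00317). Under the block 15 members fell and 5 rose, against 21.1% of all genes, and in the RNeasy arrays alone 9 fell and 2 rose, against 9.26%. Without media control replicate 2 the 3 IFITM genes passed and 0 members passed as lower by limma, although 19 members had an unadjusted p under 0.05. All 5 falls also failed without some other array. These were IL-21 replicate 1 for Iigp1 (adjusted p = 0.0621), Ifi27l2a (0.0698) and Igtp (0.174), IL-21 replicate 2 for Igtp (0.0584), IL-21 replicate 3 for Iigp1 (0.0671), Trim25 (0.0546) and Ifih1 (0.0892), and media control replicate 3 for Iigp1 (0.051) and Ifih1 (0.0546). The B cell marker mean ranged over 5.88 to 6.01 with IL-21, against 6.23 to 6.39 in the media control, without overlap and with 1 of 9 markers called lower (Cd79b, -0.89). The CD8 T cell marker mean ranged over 12.10 to 12.35 with IL-21, against 12.32 to 12.62, with 1 of 8 called lower (Cd5, -0.97), and the myeloid marker mean over 5.16 to 6.10, against 5.42 to 6.51, with 0 of 10 called. The part of these markers in the falls was not tested.

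IL-4 lowered 8 members and raised 1, against 9.07% of all genes (3.98% higher and 5.10% lower). Of the 29 members above background, 8 fell and 0 rose. In the separate fit of the 6672 genes above background, 25.9% of genes were called. The median change of the members was -0.25 and that of all genes 0.00. Ifi209 was at 8.24, 8.28 and 8.99 with IL-4, against 11.25, 12.22 and 11.74 in the media control (-3.24, SE 0.35, adjusted p = 3.9e-05). Samhd1 was at 10.47, 10.52 and 11.03 with IL-4, against 11.52, 12.11 and 11.63 (-1.08, SE 0.21, adjusted p = 0.00389). Ifi27l2a was at 10.26, 10.74 and 11.31 with IL-4, against 11.75, 12.50 and 12.06 (-1.33, SE 0.33, adjusted p = 0.0172). In these 3 genes the groups did not overlap.

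Trim25 was at 10.37, 10.21 and 10.13 with IL-4, against 11.11, 11.56 and 10.95 in the media control (-0.97, SE 0.20, adjusted p = 0.00532). Trim30a was at 9.37, 9.21 and 9.60, against 10.04, 10.60 and 9.86 (-0.77, SE 0.20, adjusted p = 0.0223). Both TRIM genes were lower in every IL-4 array. Parp14 (-0.74) and Ifih1 (-0.67) fell too. Ifitm1 fell by 1.87 (SE 0.55, adjusted p = 0.0467), but with 8.44, 6.58 and 6.68 with IL-4, against 10.34, 8.17 and 8.80, its groups overlapped, and it did not pass in the RNeasy arrays alone (adjusted p = 0.209).

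Mx1, a dynamin-like antiviral GTPase of which many laboratory mouse strains carry a defective allele, was the 1 member that rose with IL-4. It was at 7.45, 6.99 and 7.16 with IL-4, against 5.97, 6.25 and 5.21 in the media control. The IL-4 arrays lay above the 15 other arrays, which reached 6.47 at most, and all 18 lay below the background level. The change was 1.39 (SE 0.28, adjusted p = 0.00452). With the replicate block 13 members fell and 2 rose, against 25.8% of all genes, and in the RNeasy arrays alone 9 fell and 1 rose, against 12.8%. Without media control replicate 2 the calls of Ifi27l2a (adjusted p = 0.0942), Trim30a (0.127), Parp14 (0.116) and Ifih1 (0.112) were lost. Leaving out IL-4 replicate 1 or 2 ended the same 4 calls, with adjusted p of 0.0576 to 0.13, and that of Ifih1 was lost without media control replicate 3 (0.0763). That of Ifitm1 was lost without IL-4 replicate 2 (0.179) or 3 (0.17) and without media control replicate 1 (0.176) or 3 (0.074). The CD8 T cell marker mean averaged 12.15 and reached 12.25 at most with IL-4, against an average of 12.51 and 12.32 at least in the media control, with 3 of 8 called lower (Cd3e, Cd2 and Cd5). The B cell marker mean ranged over 5.93 to 6.07 with IL-4, against 6.23 to 6.39, with 1 of 9 called lower (Ighm, -0.65), and the myeloid marker mean over 4.99 to 5.44, against 5.42 to 6.51, with 0 of 10 called. Of 4 NK cell markers, Eomes was called higher (2.02) and Klre1 lower (-1.22). The part of these markers in the IL-4 result was not tested.

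IL-7 lowered 1 member and raised 0, against 1.68% of all genes (0.934% higher and 0.747% lower). This was Ifi209, at 9.53, 10.26 and 10.24 with IL-7, against 11.25, 12.22 and 11.74 in the media control (-1.73, SE 0.35, adjusted p = 0.0207). Its call was lost in the RNeasy arrays alone (0.0543) and without media control replicate 2 (0.118) or 3 (0.0751) or IL-7 replicate 1 (0.133) or 2 (0.064). On the values as deposited 0.0440% of all genes and 0 members were called with IL-7 by limma, 1 member having an unadjusted p under 0.05. The median change of the 45 members was -0.30 and that of all genes -0.02, and 11 members had an unadjusted p under 0.05. With the replicate block 7 members fell and 2 rose, against 16.3% of all genes. The B cell marker mean ranged over 5.83 to 5.98 with IL-7, against 6.23 to 6.39 in the media control, with 2 of 9 called lower (Cd79a and Ms4a1), and of 8 CD8 T cell markers 1 was called lower (Cd5, -0.69). Lyz2 was at 6.76, 8.32 and 6.37 with IL-7, against 8.81, 11.54 and 7.67. The part of these markers in the IL-7 result was not tested. Under IL-15, 0 members passed by limma, against 0.00% of all genes, and 2 members, Rsad2 (-0.48) and Gbp3 (0.37), had an unadjusted p under 0.05. The members' median change with IL-15 was -0.10 and their changes lay between -0.63 and 0.38. Ifi209 was at 10.85, 11.83 and 10.66 with IL-15, overlapping the media control.

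**Figure D4:**
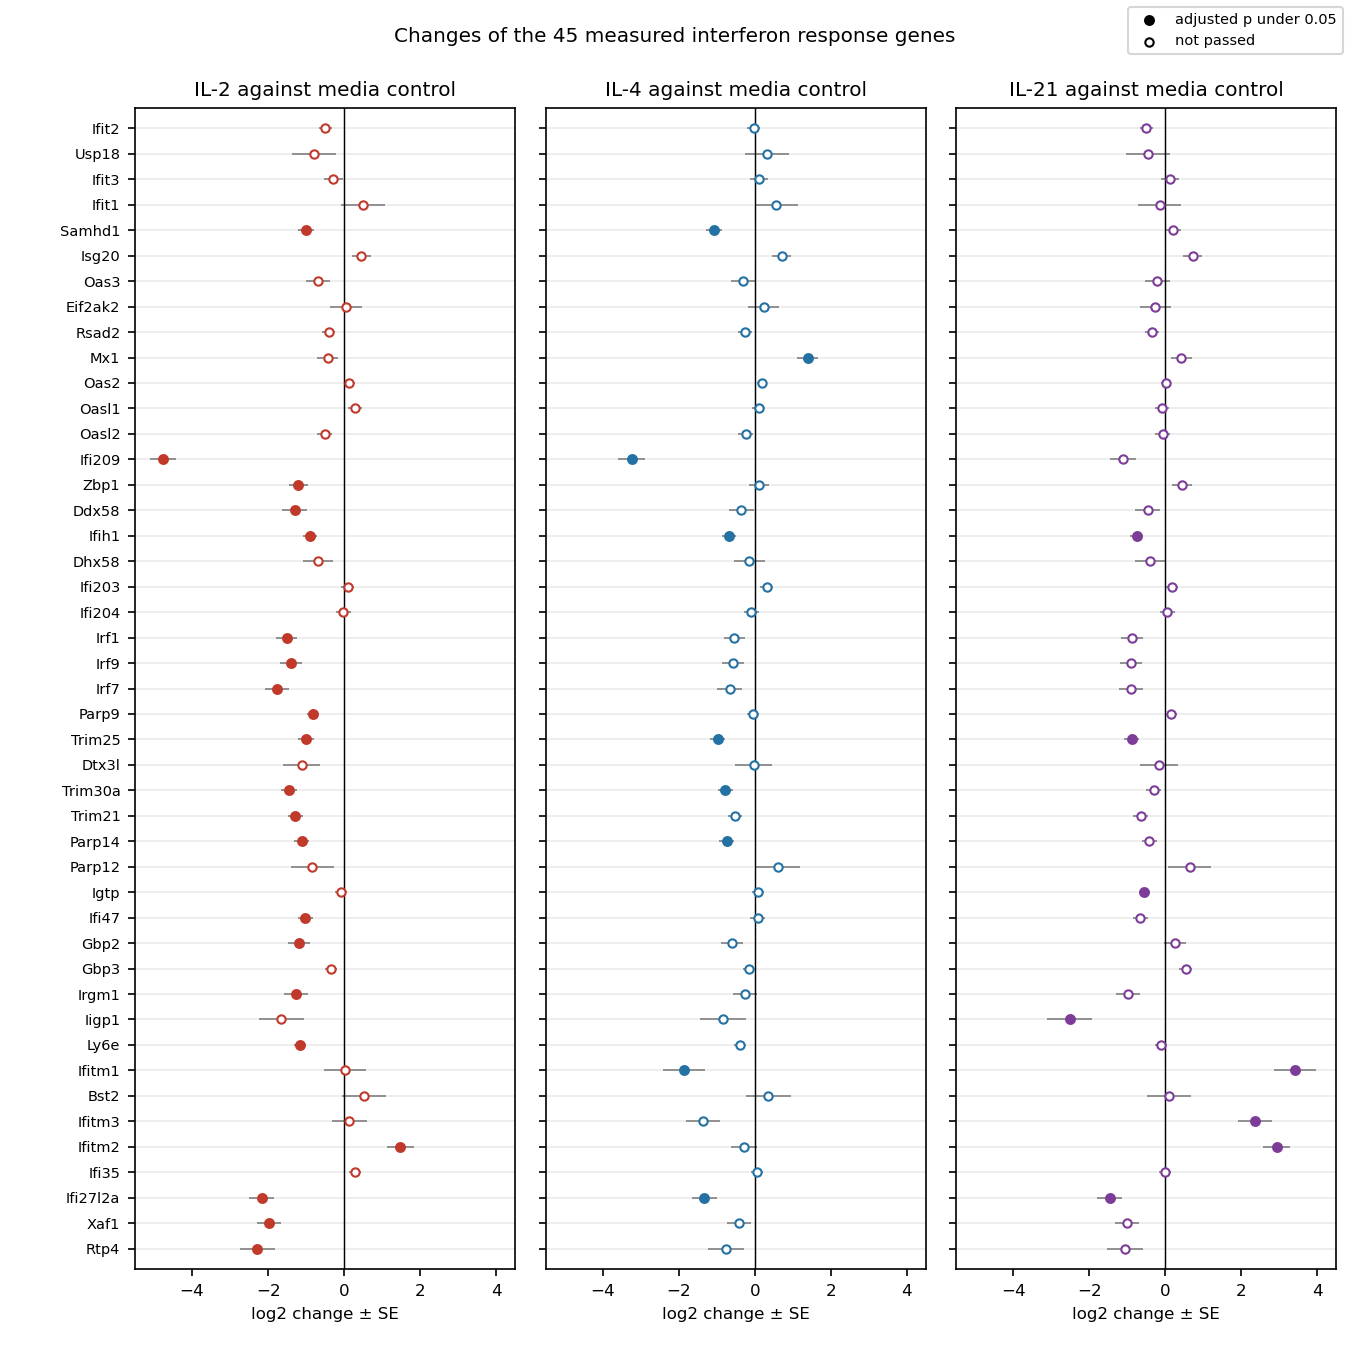
Log2 change with SE of the 45 measured members against the media control, for IL-2, for IL-4 and for IL-21, in the same row order. Filled points passed at an adjusted p under 0.05. IL-2 has 20 filled points on the left and 1 on the right, IL-4 8 and 1, and IL-21 5 and 3.

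These comparisons share the 3 media control arrays, so the cytokines were also compared with each other directly. IL-21 against IL-2 gave 12 members higher and 0 lower, with 6.58% of all genes called (3.71% higher and 2.87% lower). With the unadjusted p, 23 members were under 0.05. The members' median difference was 0.49, against -0.01 for all genes. Ifi209, at 10.20, 11.25 and 10.43 with IL-21 and 6.81, 6.95 and 7.18 with IL-2, differed by 3.64 (SE 0.35, adjusted p = 1.73e-05). Ifitm1 differed by 3.38 (SE 0.55, adjusted p = 0.0015) and Ifitm3 by 2.23 (SE 0.45, adjusted p = 0.00623). Zbp1, at 10.10, 10.30 and 9.93 with IL-21 and 8.27, 8.12 and 9.05 with IL-2, differed by 1.63 (SE 0.26, adjusted p = 0.00114). No array of these 4 genes crossed between the groups. Ifitm2 (1.45), Gbp2 (1.43), Samhd1 (1.18), Trim30a (1.14), Ly6e (1.05), Parp9 (0.97), Gbp3 (0.88) and Parp14 (0.70) were higher with IL-21 as well. With the replicate block 21 were higher and 2 lower, against 21.4% of all genes, and in the RNeasy arrays alone 19 were higher and 0 lower, against 12.6%. The call of Ifitm2 was lost without IL-21 replicate 1 or 2 or IL-2 replicate 1 or 3 (adjusted p = 0.0547 to 0.123), and that of Parp14 without any of these 6 arrays but IL-2 replicate 3 (0.0637 to 0.161).

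IL-21 against IL-4 gave 6 members higher and 1 lower, with 3.81% of all genes called (2.35% higher and 1.46% lower). The IFITM genes showed the widest differences. Ifitm1 was at 12.33, 12.91 and 12.30 with IL-21 and 8.44, 6.58 and 6.68 with IL-4, a difference of 5.28 (SE 0.55, adjusted p = 2.96e-05) or 38.8-fold. Ifitm3 was at 10.94, 11.41 and 11.23 with IL-21 and 8.32, 6.53 and 7.56 with IL-4 (3.72, SE 0.45, adjusted p = 9.97e-05). Ifitm2 was at 10.60, 11.23 and 10.05 with IL-21 and 7.40, 7.46 and 7.42 with IL-4 (3.21, SE 0.35, adjusted p = 4.41e-05). The IL-4 means of all 3 genes lay below background, so that the folds are not exact. These 3 differences were also called on the values as deposited, with adjusted p of 0.00135, 0.0208 and 0.0265. Ifi209 was 2.12 higher with IL-21 (SE 0.35, adjusted p = 0.00145), Samhd1 1.27 and Gbp3 0.67 higher, and Igtp lower (-0.64, SE 0.15, adjusted p = 0.0212). The calls of Gbp3 and Igtp were each lost without 4 of the 6 arrays. For Gbp3 these were IL-21 replicates 1 and 2 and IL-4 replicates 2 and 3 (adjusted p = 0.0516 to 0.14), and for Igtp IL-21 replicates 1 and 2 and IL-4 replicates 1 and 3 (0.0505 to 0.125). Under the block 6 members were higher and 6 lower, against 11.7% of all genes.

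IL-4 against IL-2 gave 7 members higher and 1 lower, with 2.07% of all genes called (1.10% higher and 0.962% lower) and a median difference of 0.46 for the members and -0.01 for all genes. Mx1, at 7.45, 6.99 and 7.16 in the IL-4 arrays and 5.51, 5.35 and 5.27 in the IL-2 arrays, differed by 1.83 (SE 0.28, adjusted p = 0.00158). Xaf1, at 8.83, 8.83 and 9.33 in the IL-4 arrays and 6.96, 7.24 and 8.11 in the IL-2 arrays, differed by 1.56 (SE 0.32, adjusted p = 0.0155). The difference was 1.52 for Ifi209 (SE 0.35, adjusted p = 0.0312) and 1.31 for Zbp1 (SE 0.26, adjusted p = 0.0113). In these 4 genes every IL-4 array was above every IL-2 array. Ifi47 (1.10), Parp9 (0.78) and Ly6e (0.77) were also higher with IL-4. Ifitm2 was lower, at 7.40, 7.46 and 7.42 in the IL-4 arrays and 8.60, 9.98 and 8.96 in the IL-2 arrays (-1.76, SE 0.35, adjusted p = 0.0117). Of the 8 calls, 2 (Mx1 and Ifi47) passed whichever array was left out. That of Ifi209 failed without any 1 of the 6 arrays (0.0551 to 0.147). The calls of Xaf1, Zbp1 and Parp9 failed without IL-2 replicate 1 or 2 or IL-4 replicate 3 (0.0544 to 0.0905), that of Ly6e without IL-2 replicate 3 or IL-4 replicate 1 or 2 (0.0632 to 0.093), and that of Ifitm2 without IL-2 replicate 2 or IL-4 replicate 1 or 2 (0.0504 to 0.0549). Under the block 20 were higher and 3 lower, against 10.6% of all genes.

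The remaining pairs of cytokines are given more briefly. IL-15 against IL-2 gave 22 members higher and 1 lower, against 8.60% of all genes called (4.35% higher and 4.24% lower). The differences were 4.13 for Ifi209 (SE 0.35, adjusted p = 5.7e-06), 2.19 for the antiviral gene Rtp4 (SE 0.47, adjusted p = 0.00804), 1.92 for Ifi27l2a and 1.86 for Xaf1. Irf1 (1.30), Irf7 (1.31) and Irf9 (1.22) were each higher with IL-15, and Ifitm2 was lower (-1.49). IL-7 against IL-2 gave 7 members higher and 0 lower, against 1.42% of all genes (0.896% higher and 0.528% lower). These were Ifi209 (3.03), the guanylate-binding protein Gbp2 (1.47), Ifi27l2a (1.43), Ifi47 (1.13), Ly6e (0.86), Trim30a (0.84) and Parp9 (0.68). IL-15 against IL-7 gave 0 members by limma, with 0.0110% of all genes called, and 2 members had an unadjusted p under 0.05.

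The IFITM genes were higher with IL-21 than with IL-15 or IL-7, and Igtp was lower. Ifitm1 differed by 3.85 from IL-15 (SE 0.55, adjusted p = 0.000662) and by 3.83 from IL-7 (SE 0.55, adjusted p = 0.000927). The difference in Igtp was -0.70 from IL-15 and -0.95 from IL-7, and Iigp1 (-2.55) and Ifi47 (-0.77) were lower than with IL-15. Ifit2, an RNA-binding protein of the IFIT family, was at 8.06, 8.18 and 8.36 with IL-21, against 8.66, 9.0 and 9.19 with IL-15 (-0.75, SE 0.17, adjusted p = 0.0229), and it differed from IL-7 by -0.72. IL-21 against IL-15 gave 3 members higher and 4 lower, with 3.54% of all genes called (2.06% higher and 1.48% lower), and IL-21 against IL-7 gave 4 higher and 2 lower, with 2.24% called (1.45% higher and 0.797% lower). Mx1 was lower with IL-15 (-1.29) and IL-7 (-1.28) than with IL-4. IL-15 against IL-4 gave 2 members higher and 1 lower, with 3.64% of all genes called (2.09% higher and 1.55% lower), and IL-7 against IL-4 also gave 2 higher and 1 lower, with 1.34% called (0.632% higher and 0.704% lower). The higher genes were Ifi209 and Samhd1 in both.

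Other genes of the pathway were counted in the same fit. Of 8 measured interferon genes, the interferon-γ gene Ifng alone had a group mean above background and alone passed a test. Its IL-2 arrays were at 10.46, 8.83 and 10.63, its IL-4 arrays at 8.80, 8.09 and 8.63 and its IL-21 arrays at 10.37, 10.60 and 9.59, against 7.01, 6.70 and 6.91 in the media control. All arrays of these cytokines were above all of the media control. The changes were 3.10 with IL-2 (SE 0.45, adjusted p = 0.000256), 1.63 with IL-4 (SE 0.45, adjusted p = 0.0332) and 3.31 with IL-21 (SE 0.45, adjusted p = 0.00027). They were 0.58 with IL-7 and 0.44 with IL-15, which did not pass. IL-21 and IL-2 differed by 0.22 in Ifng (SE 0.45, adjusted p = 0.869).

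Of 11 measured genes of the receptors, kinases and STAT factors, IL-2 lowered 6, IL-4 lowered 5, IL-7 lowered 1, and IL-21 lowered 3 and raised 1, where 8.0%, 5.10%, 0.747% and 3.29% of all genes were called lower with IL-2, IL-4, IL-7 and IL-21 in turn. Ifnar1, a chain of the type I interferon receptor, had levels of 8.23, 8.45 and 8.13 under IL-2, of 8.23, 8.41 and 8.15 under IL-4 and of 8.55, 8.94 and 8.20 under IL-21, against 9.43, 10.05 and 9.66 in the media control. Its changes were -1.44, -1.45 and -1.15 (SE 0.26), and those of its partner chain Ifnar2 were -0.85, -0.88 and -1.06 (SE 0.22), all called. Ifngr1 fell with IL-2 (-1.08) and IL-4 (-1.50), and the change with IL-21 was -0.44. Ifngr2 changed by -0.14, 0.48 and -1.22 with these cytokines, with no call. Jak2 fell by 1.51 with IL-2 (SE 0.16, adjusted p = 2.27e-05), and by 0.55, 0.81 and 0.61 with IL-4, IL-7 and IL-21. Jak1 (-1.32) and Il10rb (-0.90), a receptor chain shared by interferon-λ and IL-10, fell with IL-2, and Il10rb with IL-4 (-1.24). Stat3 rose with IL-21 (0.51). Stat2 changed by -0.27 to 0.24 over the 5 cytokines with no call and no group mean above background.

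Of the 9 measured inhibitors, 3 rose with IL-2, as many with IL-4 and with IL-21, and 1 with IL-7. The share of all genes called higher was 7.83% for IL-2, 3.98% for IL-4, 3.39% for IL-21 and 0.934% for IL-7. Socs1, an inhibitor of JAK kinases that restrains interferon signalling, had levels of 7.81, 8.47 and 8.69 under IL-2 and of 8.06, 9.24 and 9.15 under IL-4, against 6.46, 7.62 and 7.20 in the media control. It changed by 1.23 (SE 0.38, adjusted p = 0.0384) and 1.72 (SE 0.38, adjusted p = 0.00932), and by 0.37 with IL-21, which did not pass. Socs3, a related inhibitor, was at 10.94, 12.07 and 11.44 with IL-21, against 8.0, 9.20 and 8.12 in the media control (3.04, SE 0.40, adjusted p = 0.000203), and changed by 0.20 with IL-2 and 1.11 with IL-4. In the direct comparison Socs3 was 2.84 higher with IL-21 than with IL-2 (SE 0.40, adjusted p = 0.000488). IL-2 raised Cish by 3.30 and Ptpn2 by 0.53, IL-4 by 3.88 and 0.60, and IL-21 by 1.84 and 0.59, and IL-7 raised Cish by 2.92. Irf2, a repressor of the ISRE, fell with IL-2 (-1.53) and IL-4 (-1.05). Among 15 sensor adaptors, kinases and other IRFs, 3 were called with IL-2 and 3 with IL-21, where 15.8% and 6.67% of all genes were. With IL-4 and with IL-7 it was 1 each, where 9.07% and 1.68% of all genes were called. The counts with IL-2 and IL-4 lay near the share of all genes. Ikbke, a kinase that activates IRF3 and IRF7, fell with IL-2 (-2.07), with IL-21 (-1.53), with IL-7 (-1.19) and with IL-4 (-1.08). Irf4, a factor of T cell activation, rose with IL-2 (1.52). The adaptor Myd88 fell with IL-2 (-0.55) and rose with IL-21 (0.53). Irf5, with no group mean above background, fell with IL-21 (-0.51).

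**Figure D5:**
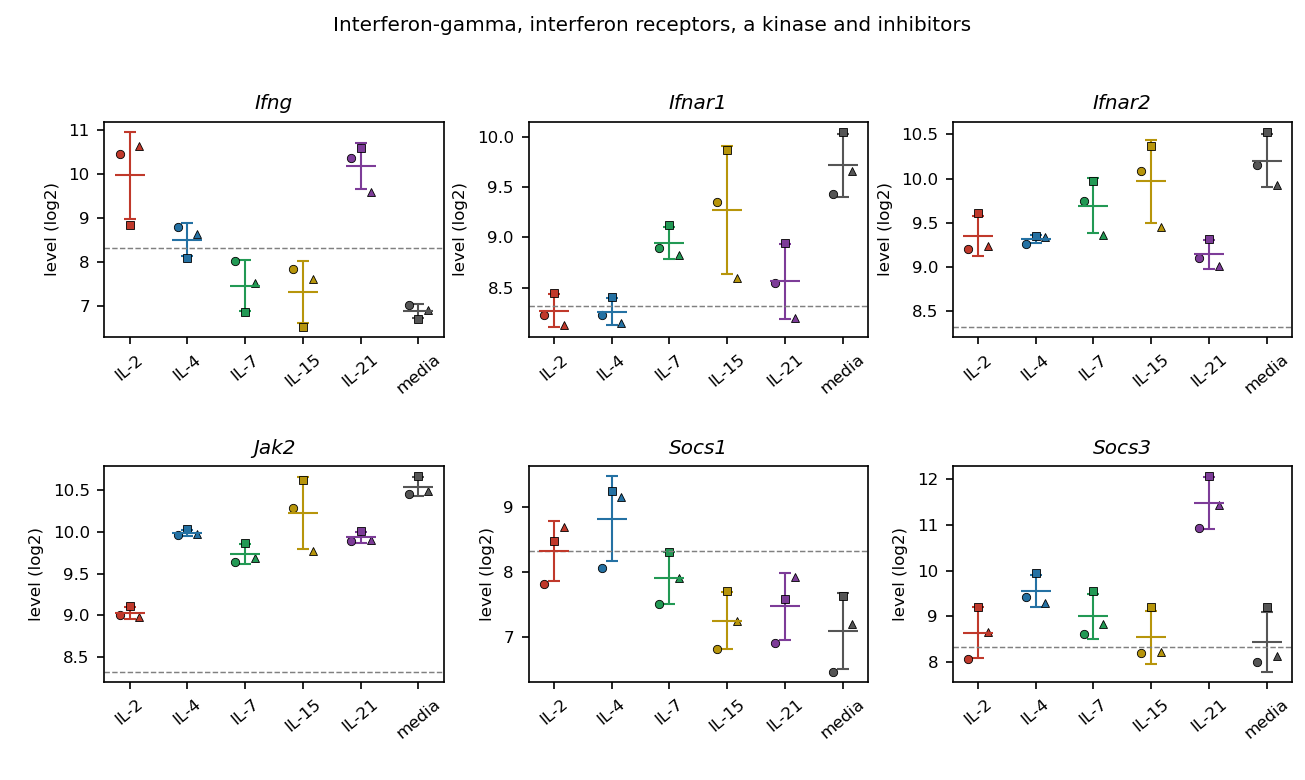
Log2 levels of Ifng, Ifnar1, Ifnar2, Jak2, Socs1 and Socs3 in the 6 groups. Replicate 1 is drawn as circles, replicate 2 as squares and replicate 3 as triangles. Bars are means with SD (n = 3), and the dashed line is the background level of 8.32. Ifng is higher with IL-21, IL-4 and IL-2 than in the media control, and Ifnar1, Ifnar2 and Jak2 are lower.

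A further 58 measured interferon-induced genes outside the list were counted in the same fit. With IL-2, 1 rose and 31 fell, against 7.83% and 8.0% of all genes, with a median change of -0.81. The largest falls were those of Ms4a4c (-3.18), Calhm6 (-3.11), Slfn1 (-2.95) and Trim12a (-2.39), whose IL-2 means lay below background, so that their order is not exact. Slfn2 (-2.22) and Ms4a4b (-2.09) fell with means above background in both groups, at 9.86 and 11.94 with IL-2, against 12.09 and 14.03 in the media control. The rise was that of Pnpt1 (0.87). With IL-4, where 5.10% of all genes were called lower and 3.98% higher, 8 fell and 1 rose, Oas1a, by 0.81 (SE 0.14, adjusted p = 0.0013). Oas1a, a 2'-5' oligoadenylate synthetase, fell with IL-2 (-0.59), and it had no group mean above background. IL-7 lowered 2 and raised 0, IL-15 gave 0 calls by limma (1 at an unadjusted p under 0.05), and IL-21, with 3.29% of all genes lower and 3.39% higher, lowered 8 and raised 1, Plac8 (0.59). The share of all genes called lower with IL-7 was 0.747%. The median change of these genes was -0.34 under IL-21, -0.13 under IL-15, -0.29 under IL-7 and -0.40 under IL-4. Trim12a also fell with IL-21 (-1.27), with IL-4 (-1.15) and with IL-7 (-1.12). Ms4a4c also fell with IL-4 (-2.38), with IL-21 (-1.93) and with IL-7 (-1.24). Calhm6 fell with IL-2 and IL-21 (-1.83) and was 3.10 higher with IL-4 than with IL-2 (SE 0.24, adjusted p = 1.6e-06).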

How the data were processed

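The deposited log2 value of each probe set on the 18 arrays was made by the authors with RMA in Affymetrix Expression Console. The scanner output was not used here. Of 45101 probe sets, 34958 had 1 gene symbol in the platform annotation, 932 several and 9211 were not listed. For each of 18194 genes the probe set with the highest mean was kept, and the 18 columns were quantile normalized. A model with 1 mean per group was fitted over all arrays by lmFit and eBayes of limma (version 3.58.1, R 4.3.3; two-sided, 12 residual degrees of freedom), with Benjamini-Hochberg adjustment over the genes of a comparison, a threshold of 0.05 and no filter on low levels. The number of arrays limits the precision.

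Deviations from the group means correlated between arrays of the same replicate number (45 pairs, lowest 0.44, median 0.60), while 90 pairs of different numbers lay between -0.77 and 0.38. The numbers therefore pair the samples, but calls are from the fit without this pairing unless the block is named. Member counts with the number as a block are given, where they differ, for the comparisons with media control. They are also given for IL-21 against IL-2, IL-21 against IL-4 and IL-4 against IL-2. The other cytokine pairs and the lists outside the members are given without the block. They also carry the extraction method.

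The members, lists and the rule for named genes were chosen with earlier results of these data known. Values per array are given for up to 5 members per direction and cytokine, and up to 4 between cytokines, with the largest called changes and all 3 arrays beyond the other group, and for other IRF and IFITM genes. Alternatives were the values as deposited, columns shifted to 1 median, the replicate block, RNeasy arrays alone, eBayes with trend and robust, genes above background only, a second probe set, each array left out, and, chosen after seeing the data, the 3 arrays on the lower scale left out. Promoters are from RefSeq. Scripts used Python 3.11.15 with pandas 2.3.3, and matplotlib 3.10.9 drew the figures.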

Additional observations from a re-analysis of the deposited data

How the results depend on the processing

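On the values as deposited, where 3 arrays lie lower and at most 0.495% of all genes were called against media control, the count of members called was 1 for IL-2, 1 for IL-4, 0 for IL-7 and 2 for IL-21 against media control, 2 for IL-21 against IL-2, 3 for IL-21 against IL-4, 0 for IL-4 against IL-2 and 3 in the test over the 6 groups. By unadjusted p under 0.05 in limma the counts of 0 stood at 1 for IL-7 and 17 for IL-4 against IL-2. With columns shifted to 1 median, 5 were called for IL-4, against 7.06% of all genes, and the other counts stayed within 1.5 times. With the replicate block the counts against media control were 32 for IL-2, 15 for IL-4, 9 for IL-7 and 20 for IL-21, those between cytokines 23 for IL-21 against IL-2, 12 for IL-21 against IL-4 and 23 for IL-4 against IL-2, and the block ended no call. The RNeasy arrays alone gave 0 for IL-7, against 3.53% of all genes, and 19 for IL-21 against IL-2, where 12.6% were called. Restricted to genes above background, 16 were called for IL-21, against 18.6% of the 6672 genes tested there. The shares of those genes called were 40.5% for IL-2, 25.9% for IL-4 and 8.35% for IL-7 against media control. They were 18.6% for IL-21 against IL-2, 8.47% for IL-21 against IL-4 and 5.41% for IL-4 against IL-2. With a second probe set, for genes that had more than 1, 4 were called for IL-4 against IL-2, where 1.32% of all genes were. Without the 3 arrays on the lower scale, a choice made after seeing the data, 3 were called for IL-7 and 13 for IL-21. The shares of all genes called there were 1.91% and 7.35%. Leaving out each array in turn gave 18 to 24 for IL-2, 4 to 8 for IL-4, 0 to 1 for IL-7, 0 to 0 for IL-15 and 3 to 10 for IL-21 against media control, 10 to 13, 5 to 7 and 3 to 7 in the comparisons of IL-21 with IL-2, IL-21 with IL-4 and IL-4 with IL-2, and 23 to 29 over the 6 groups. Why these counts moved was not tested.

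Of the 66 changes called for single members in the comparisons above, excluding the 7 briefer cytokine pairs, none changed direction under the alternatives run. Calls were lost for 57 on the values as deposited, 15 with a second probe set, 9 with shifted columns, 6 in the RNeasy arrays alone and 2 without the 3 lower arrays, and 24 were lost without at least 1 array. A gene with 1 probe set of its own kept it in the second probe set fit. For such members that fit was no check on the call or its direction, so the 15 cannot be set against all 66. With the median of the tissue genes as background, 43 members lay above it. With 3 arrays a group, a change that missed the threshold is not shown to be absent.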
